A study of Mus musculus with 8 samples.

Results

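Immunoglobulin constant genes encode the part of an antibody that fixes its class. *Igha*, *Ighm*, *Ighg1*, *Ighg2b* and *Ighg2c* encode the constant regions of the IgA, IgM, IgG1, IgG2b and IgG2c heavy chains, and *Igkc* and *Iglc2* those of the kappa and a lambda light chain. *Jchain* encodes the joining chain that links IgA into dimers and IgM into larger polymers. *Cd79a* and *Cd79b* encode the signalling partners of the B cell receptor. Plasma cells hold very large amounts of constant region and *Jchain* transcript, while B cells carry *Ighm*, *Ighd* and the *Cd79* genes on a membrane receptor. These 10 genes were taken by symbol from a table of 55416 mouse gene identifiers.

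The table holds liver RNA from 8 mouse libraries. In the 4 HKO livers an albumin-driven Cre recombinase (Alb-cre+), which acts in hepatocytes, was used to delete *Smpd3*, the gene of neutral sphingomyelinase 2. The 4 FLOX livers lacked the Cre (Alb-cre-). Both groups were kept on HFMCD for 9 weeks as a diet model of steatohepatitis, so no liver from another diet enters the comparison. Strain, age and sex are not in the labels. Nor do they state whether the libraries are from separate animals, so the p-values reflect the spread among these 8 samples, which may be technical. Cre was present in HKO livers alone, so its own effect and that of the deletion cannot be told apart. The deletion is in hepatocytes, not in the cells that make antibodies.

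Levels are TPM, transcript abundances per length scaled to each library's total, with sequencing depth unknown. Library sums were 994563 to 995449 TPM. *Smpd3* stood at 1.88 ± 0.86 TPM in HKO livers and 9.58 ± 2.65 TPM in FLOX livers (SD, n = 4 each), with a log2 fold change of -1.89 and an adjusted p of 0.0300 in limma. FLOX replicate 4 was the lowest library for myeloid and T cell markers. Its summed level of 10 myeloid markers was 891 TPM, against 1165 to 1640 TPM in the HKO livers and 1425 to 1598 TPM in the other FLOX livers. Its summed level of 12 T cell markers was 15.1 TPM, not far below the next library, FLOX replicate 2, at 18.8 TPM. In bulk liver RNA, fewer cells of a type and less RNA per cell cannot be told apart.

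Sequences are shown first, because the isotypes are told apart by sequence alone. The IgG genes differ most visibly in the hinge, the flexible joint between the antigen-binding arms and the stem, which has an exon of its own (exon 2 of each gene). The hinge exons below are from the GENCODE M21 transcripts (GRCm38, minus strand), 5′ to 3′, at chr12:113329844-113329882 for *Ighg1*, chr12:113307261-113307326 for *Ighg2b* and chr12:113288263-113288325 for *Ighg2c*. Capitals mark in-frame cysteine codons. The sequence alone does not show which chain each of these cysteines bonds to.
Ighg1: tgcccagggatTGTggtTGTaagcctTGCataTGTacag
Ighg2b: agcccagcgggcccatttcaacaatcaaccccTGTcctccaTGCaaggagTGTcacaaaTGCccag
Ighg2c: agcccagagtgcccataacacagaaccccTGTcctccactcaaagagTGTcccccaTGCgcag

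The hinge exons are 39, 66 and 63 bases long for *Ighg1*, *Ighg2b* and *Ighg2c*, with 4, 4 and 3 such codons. Over the whole coding sequence of the secreted forms, *Ighg2b* and *Ighg2c* were identical at 85.6% of aligned bases, *Ighg1* and *Ighg2c* at 75.3%, and *Ighg1* and *Ighg2b* at 74.7%. Stretches of 50 bases found in the transcripts of another gene made up 5.49% of those of *Ighg2c*, 4.15% of *Ighg2b* and 0.393% of *Ighg1*. The share was 7.65% for *Iglc2*, shared with *Iglc3*, and 8.31% for *Cd79a*, shared with a predicted gene. It was 0 for *Igkc*, *Igha*, *Ighm*, *Jchain* and *Cd79b*. The values of *Ighg2b*, *Ighg2c*, *Iglc2* and *Cd79a* are therefore the less certain ones, since reads from the shared stretches can be assigned to either gene.

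The secreted IgA and IgM heavy chains end in a tailpiece that the joining chain binds. The last 57 coding bases before the stop codon are shown from GENCODE M21 (GRCm38, minus strand), at chr12:113258771-113258827 for *Igha* and chr12:113420870-113420926 for *Ighm*, with the codon of the cysteine that bonds to the joining chain in capitals.
Igha: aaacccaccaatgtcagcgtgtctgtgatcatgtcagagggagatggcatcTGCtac
Ighm: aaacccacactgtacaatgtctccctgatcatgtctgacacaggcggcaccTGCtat

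These stretches were identical at 38 of 57 bases (66.7%). They are shown because the levels of *Jchain* are set beside those of *Igha* and *Ighm* below. The table gives 1 value per gene, so secreted and membrane forms of a heavy chain were not separated.

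All 10 genes were above 0 in every library, and all 10 passed the filter of 1 TPM in at least 4 of the 8 libraries. In both groups the IgA heavy chain and the kappa light chain were the most abundant of the genes. The kappa gene *Igkc* stood at 185.82, 72.31, 141.87 and 110.74 TPM in HKO replicates 1 to 4 and at 159.99, 203.11, 189.38 and 119.12 TPM in FLOX replicates 1 to 4. HKO replicate 2 was the lowest library and FLOX replicate 2 the highest, and the groups overlapped. *Igha* stood at 75.16, 34.05, 67.23 and 45.75 TPM in HKO replicates 1 to 4 and at 77.96, 76.95, 96.87 and 43.86 TPM in FLOX replicates 1 to 4. The same HKO library was lowest, and FLOX replicate 4 lay within the HKO range. *Igkc* was above *Igha* in 8 of 8 libraries, and the ranges of *Igha* and of the next gene did not overlap.

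**Figure D1:**
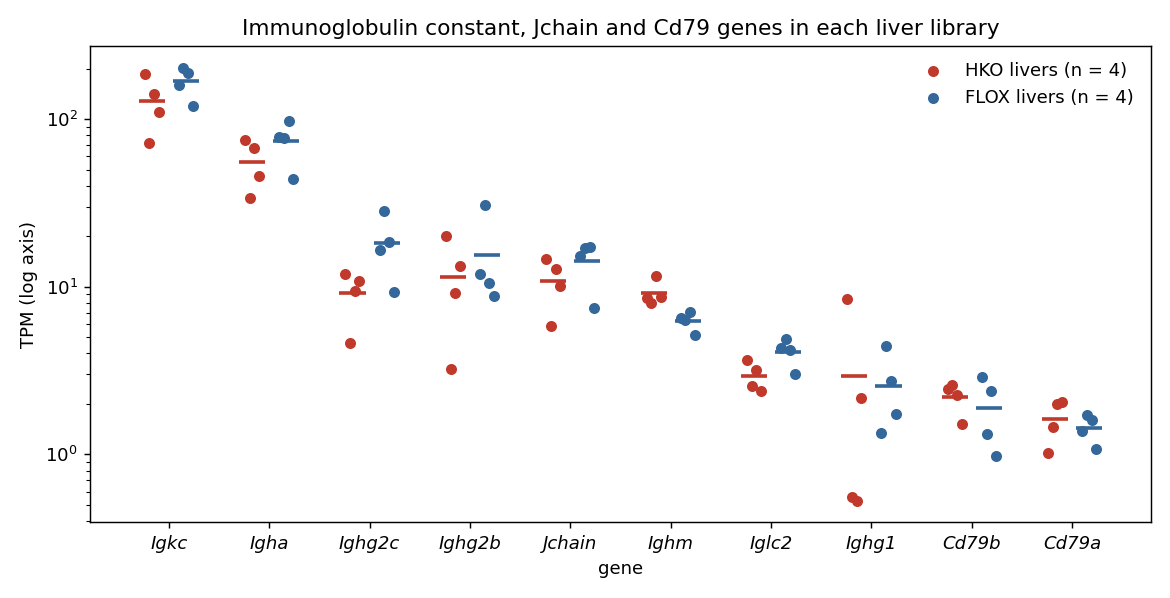
Level of each of the 10 genes in TPM (log axis), 1 point per library and a bar at the group mean, HKO livers left and FLOX livers right of each pair (n = 4 each). *Igkc* and *Igha* lead in both groups, and *Ighm* is the gene whose groups do not overlap, with HKO livers at 8.02 to 11.54 TPM and FLOX livers at 5.16 to 7.03 TPM.

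The other genes followed at lower levels. Averaged over the 8 libraries, *Ighg2c* (13.7 TPM), *Ighg2b* (13.5 TPM) and *Jchain* (12.5 TPM) lay close together, and their order changed between libraries. *Ighg2c* was above *Ighg2b* in 5 of 8 libraries and *Ighg2b* above *Jchain* in 4 of 8. *Ighm* averaged 7.73 TPM and was above *Iglc2* (3.52 TPM) in 8 of 8 libraries, without overlap of their ranges. *Ighg1* (2.75 TPM), *Cd79b* (2.05 TPM) and *Cd79a* (1.53 TPM) were lowest, and neighbours among them overlapped.

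*Ighg1* varied most between libraries, 15.9-fold from the lowest to the highest. It stood at 8.45, 0.56, 0.53 and 2.16 TPM in HKO replicates 1 to 4 and at 1.35, 4.42, 2.74 and 1.75 TPM in FLOX replicates 1 to 4. HKO replicate 1 was the highest library, and the next 2 HKO libraries were the lowest. *Ighg2b* varied 9.53-fold and *Ighg2c* 6.07-fold. The other 7 genes varied by between 2.0-fold (*Cd79a*) and 2.96-fold (*Cd79b*).

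The genotypes were compared next, by limma on log2(TPM + 1) over 12710 genes, with Benjamini-Hochberg adjustment over all of them. At an adjusted p of 0.05, 0 of the 10 members were called, against 13 of all tested genes (0.102%). The background was 0.0472% for calls higher and 0.0551% for calls lower in HKO livers. At an unadjusted p under 0.05, 2 of the 10 passed in limma, *Ighm* and *Ighg2c*, against 8.02% of all tested genes. The groups did not overlap in 1 of the 10, *Ighm*, against 4.74% of all tested genes. Values were lower in HKO livers for 7 genes and higher for 3, and the median log2 fold change was -0.36, beside 0.05 over all tested genes. Of the 12710 tested genes, 8211 had higher and 4499 lower values in HKO livers. That is the background for such counts here and in the lists below. Log2 fold changes are HKO over FLOX, and the pseudocount of 1 understates them for genes of a few TPM.

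The genes with lower values were the light chains, the switched heavy chains and the joining chain. *Igkc* averaged 128 ± 48.1 TPM in HKO livers and 168 ± 37.2 TPM in FLOX livers (SD, n = 4 each), with a log2 fold change of -0.45 (95% interval -1.02 to 0.13, adjusted p = 0.750 in limma). *Igha* averaged 55.5 ± 19.0 TPM in HKO livers and 73.9 ± 22.0 TPM in FLOX livers, a log2 fold change of -0.42 (-1.03 to 0.20, adjusted p = 0.797). The means in HKO livers were thus 76.0% and 75.2% of those in FLOX livers, differences within the spread between libraries. *Iglc2* stood at 3.68, 2.55, 3.17 and 2.4 TPM in HKO replicates 1 to 4 and at 4.3, 4.85, 4.18 and 3.03 TPM in FLOX replicates 1 to 4. Only FLOX replicate 4 lay within the HKO range, and the log2 fold change was -0.36 (-0.73 to 0.0036, adjusted p = 0.630).

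*Jchain* stood at 14.67, 5.82, 12.83 and 10.12 TPM in HKO replicates 1 to 4 and at 15.31, 16.93, 17.20 and 7.45 TPM in FLOX replicates 1 to 4. The libraries with the lowest values were HKO replicate 2 and FLOX replicate 4, and the groups overlapped. Its log2 fold change was -0.36 (95% interval -1.03 to 0.30, adjusted p = 0.860 in limma), and the HKO mean was 76.4% of the FLOX mean. The size of these differences rested in part on the libraries that stood lowest. Without FLOX replicate 4 the log2 fold changes were -0.60 for *Igkc*, -0.64 for *Igha* and -0.62 for *Jchain*. Without HKO replicate 2 they were -0.20 for *Igkc*, -0.21 for *Igha* and -0.12 for *Jchain*. No call was made either way.

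Of the IgG genes, *Ighg2c* had the largest difference. It stood at 11.90, 4.65, 9.42 and 10.82 TPM in HKO replicates 1 to 4 and at 16.53, 28.21, 18.62 and 9.31 TPM in FLOX replicates 1 to 4. FLOX replicate 4 was the one FLOX library within the HKO range. The HKO mean was 50.6% of the FLOX mean, with a log2 fold change of -0.88 ± 0.33 (SE; 95% interval -1.61 to -0.16), and its adjusted p of 0.492 in limma did not pass. The value was -1.15 without FLOX replicate 4, -0.62 without HKO replicate 2 and -0.65 without FLOX replicate 2. The last 2 have unadjusted p of 0.0628 and 0.0648 in limma. *Ighg2b* stood at 20, 3.24, 9.2 and 13.28 TPM in HKO replicates 1 to 4 and at 11.92, 30.88, 10.59 and 8.76 TPM in FLOX replicates 1 to 4. FLOX replicate 2 was far above the other FLOX libraries, which lay inside the HKO range. The log2 fold change of *Ighg2b* was -0.46 (-1.53 to 0.61, adjusted p = 0.902). It was -0.09 without FLOX replicate 2, -0.017 without HKO replicate 2 and -0.79 without HKO replicate 1. That of *Ighg1* was -0.22 (-1.38 to 0.95, adjusted p = 0.973), while the plain mean of *Ighg1* was higher in HKO livers, 2.93 ± 3.76 TPM against 2.57 ± 1.37 TPM in FLOX livers. The highest library of all, HKO replicate 1, sets that mean, and the log2 fold change was -0.79 without it.

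*Ighm* pointed the other way. It stood at 8.57, 8.02, 11.54 and 8.63 TPM in HKO replicates 1 to 4 and at 6.53, 6.35, 7.03 and 5.16 TPM in FLOX replicates 1 to 4. Every HKO library was above every FLOX library. The HKO mean was 147% of the FLOX mean, with a log2 fold change of 0.48 ± 0.15 (SE; 95% interval 0.16 to 0.80). Its unadjusted p was 0.00740 and its adjusted p 0.323 in limma, so it did not pass over all genes. The log2 fold change was between 0.38 and 0.54 with each library left out in turn, and 0.43 after median-of-ratios scaling.

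**Figure D2:**
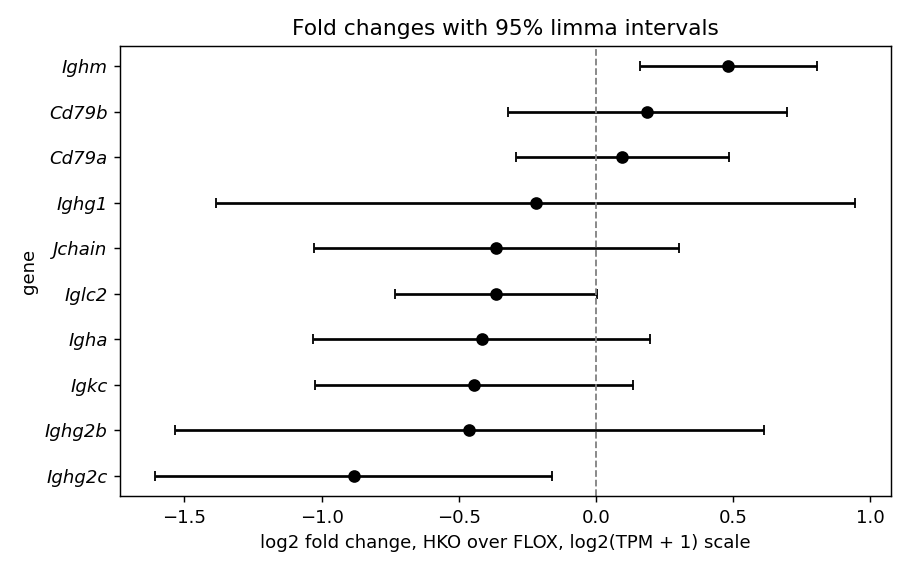
Log2 fold change of each gene, HKO over FLOX, on the log2(TPM + 1) scale, with points at the limma estimate and bars for the 95% interval, which is not adjusted for the number of genes. The interval lies above 0 for *Ighm* (0.16 to 0.80) and below 0 for *Ighg2c* (-1.61 to -0.16), and includes 0 for the other 8 genes.

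The B cell receptor genes *Cd79a* and *Cd79b* had values of 0.98 to 2.90 TPM in all libraries. *Cd79a* stood at 1.02, 1.45, 2.0 and 2.04 TPM in HKO replicates 1 to 4 and at 1.37, 1.71, 1.60 and 1.07 TPM in FLOX replicates 1 to 4. *Cd79b* stood at 2.46, 2.60, 2.27 and 1.51 TPM in HKO replicates 1 to 4 and at 2.90, 1.33, 2.38 and 0.98 TPM in FLOX replicates 1 to 4. The groups overlapped for both genes. The log2 fold changes were 0.10 (95% interval -0.29 to 0.48, adjusted p = 0.956 in limma) for *Cd79a* and 0.19 (-0.32 to 0.70, adjusted p = 0.922) for *Cd79b*. With each library left out they lay between 0.020 (without HKO replicate 4) and 0.22 (without HKO replicate 1) for *Cd79a*, and between 0.022 (without FLOX replicate 4) and 0.35 (without FLOX replicate 1) for *Cd79b*.

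Isotypes were then compared within each library, where the scaling of TPM cancels in a share. In the ratios of (TPM + 1) tested below it does not cancel fully. IgA made up most of the summed heavy chain constant TPM of the 5 listed genes, 63.3 ± 5.66% in HKO livers and 63.9 ± 8.27% in FLOX livers (SD, n = 4 each). The range over the 8 libraries was 52.4% to 71.3%. The 3 IgG genes together made up 16.7% to 32.6% in HKO livers and 23.5% to 43.3% in FLOX livers. The *Ighm* share was 6.91%, 15.9%, 11.8% and 10.7% in HKO replicates 1 to 4 and ranged from 4.33% to 7.50% in FLOX livers. HKO replicate 1 was the one HKO library within the FLOX range. The *Ighg2c* share was 9.20% to 13.4% in HKO livers and 13.5% to 19.2% in FLOX livers, without overlap. The *Ighg2b* shares overlapped, at 6.41% to 16.5% in HKO livers and 7.80% to 21% in FLOX livers. Shares of one library sum to a whole, so they are not independent of one another, and they are given without a test.

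**Figure D3:**
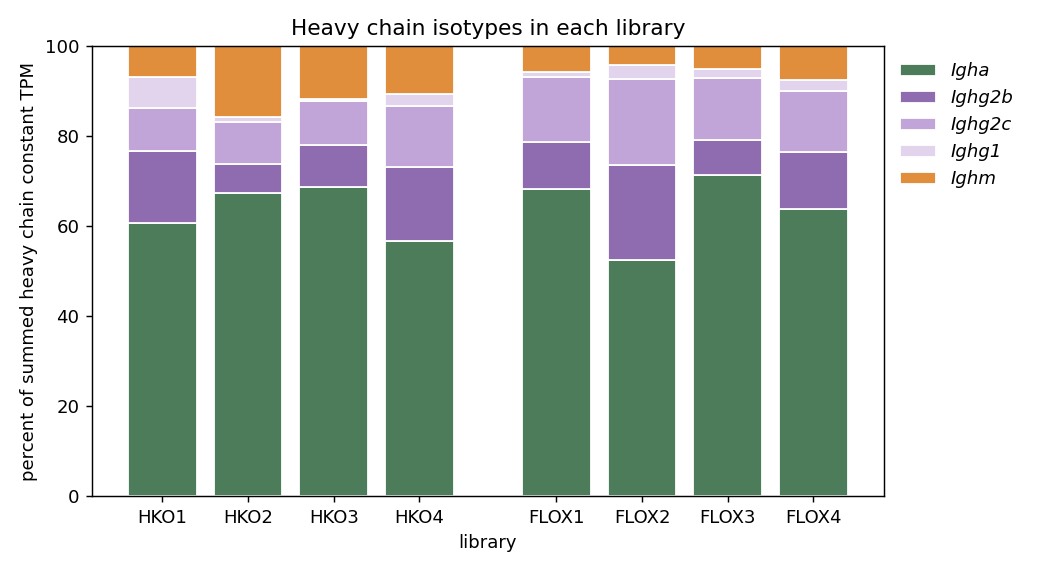
Share of each heavy chain constant gene in the summed TPM of the 5 listed heavy chain genes, in percent, 1 bar per library with the 4 HKO livers left and the 4 FLOX livers right. *Igha* makes up 52.4% to 71.3% of each bar, and the *Ighm* part is 6.91% to 15.9% in HKO livers and 4.33% to 7.50% in FLOX livers.

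The order of the heavy chains below *Igha* differed between libraries. In HKO replicates 2 and 3 *Ighm* came second, and in HKO replicates 1 and 4 *Ighg2b* did. *Ighm* was below *Ighg2b* and *Ighg2c* in HKO replicates 1 and 4 and in every FLOX library. Of the summed *Igkc* and *Iglc2* TPM, nearly all was kappa. *Igkc* made up 96.6% to 98.1% of that sum in HKO livers and 97.4% to 97.8% in FLOX livers. The sum leaves out *Iglc1* and *Iglc3*, so the whole lambda part was larger. *Iglc3* averaged 2.97 TPM in HKO livers and 2.50 TPM in FLOX livers, beside 2.95 and 4.09 TPM for *Iglc2*. The ratio of summed light to summed heavy chain TPM lay between 1.40 and 1.53 in HKO livers and between 1.42 and 1.77 in FLOX livers. The total of the 7 constant genes was 125 to 314 TPM in HKO livers and 191 to 355 TPM in FLOX livers, with means of 219 ± 79.4 and 288 ± 72.3 TPM (SD, n = 4 each).

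Ratios between 6 pairs of genes were tested by a 2-sided exact permutation test over the 70 assignments of 4 against 4, which cannot give a p below 0.0286. The ratio of *Igha* to *Ighm* was 8.77, 4.25, 5.83 and 5.30 in HKO replicates 1 to 4 and 11.9, 12.1, 13.8 and 8.50 in FLOX replicates 1 to 4. FLOX replicate 4 was the one FLOX library below the highest HKO library. The mean log2 ratio of (TPM + 1) differed by -0.90, at 2.42 ± 0.43 in HKO livers and 3.32 ± 0.32 in FLOX livers (SD, n = 4 each), with an exact permutation p of 0.0571 and 0.343 after adjustment over the 6 ratios. It did not pass, and with 6 ratios 1 alone at the smallest possible p would have an adjusted p of 0.171. *Ighg2b* to *Ighm* differed by -0.94 (exact permutation p = 0.229, adjusted 0.629). *Jchain* to *Cd79a*, which sets a plasma cell product beside a B cell receptor gene, differed by -0.46 (exact permutation p = 0.314, adjusted 0.629).

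The remaining 3 ratios had differences near 0. *Jchain* to *Igkc* was 0.0789 to 0.0914 in HKO livers and 0.0625 to 0.0957 in FLOX livers, and the mean log2 ratio differed by 0.08 (exact permutation p = 0.657, adjusted 0.914). *Igkc* to *Iglc2* was 28.4 to 50.5 in HKO livers and 37.2 to 45.3 in FLOX livers (difference -0.08, exact permutation p = 0.857, adjusted 0.914). *Igha* to *Ighg2b* spread more widely, at 3.45 to 10.5 in HKO livers and 2.49 to 9.15 in FLOX livers, and the mean log2 ratio differed by 0.04 (exact permutation p = 0.914, adjusted 0.914). The signs of these 3 differences turned in some other settings, which are given in the closing section.

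**Figure D4:**
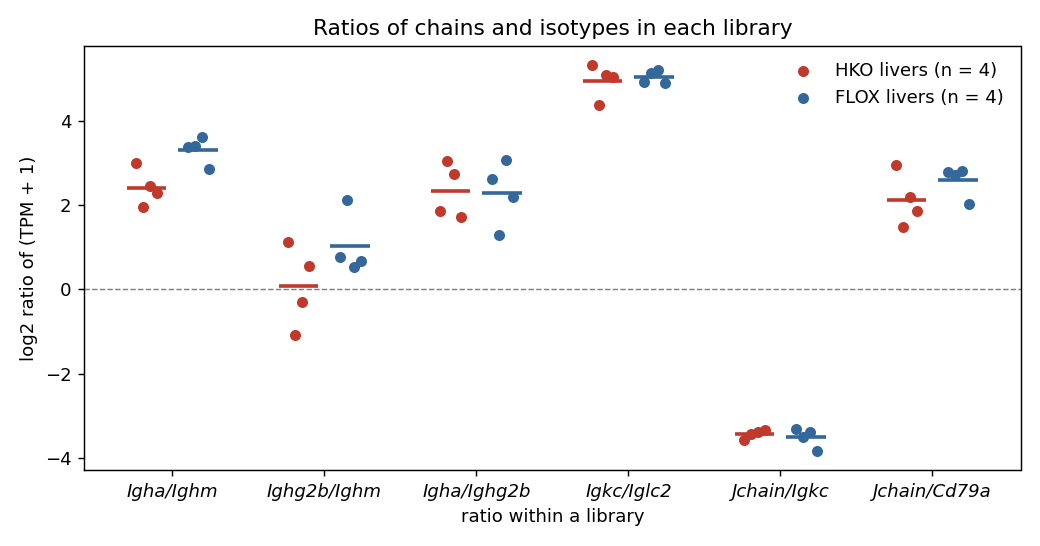
Log2 ratio of (TPM + 1) for 6 pairs of genes within each library, 1 point per library and a bar at the group mean, HKO livers left and FLOX livers right of each pair (n = 4 each). The *Igha*/*Ighm* points average 2.42 in HKO livers and 3.32 in FLOX livers, with HKO replicate 1 above FLOX replicate 4, and the *Jchain*/*Igkc* means differ by 0.08.

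Across the 8 libraries *Jchain*, *Igha*, *Ighg2c* and *Iglc2* varied with *Igkc* by both measures used, and the other 5 genes did not pass by both. *Igkc* was compared with the other 9 genes on the log2(TPM + 1) scale, by exact permutation over all 40320 orders and with adjustment over the 9 pairs. With *Jchain*, Pearson's r was 0.94 (exact permutation p = 0.000744, adjusted 0.00413) and Spearman's rho 0.93 (p = 0.00223, adjusted 0.0137). With *Igha*, r was 0.94 (exact permutation p = 0.000918, adjusted 0.00413) and rho 0.86 (p = 0.0107, adjusted 0.0241). *Ighg2c* (r = 0.89, rho = 0.90) and *Iglc2* (r = 0.87, rho = 0.90) also passed by both measures, each with an adjusted exact permutation p of 0.00971 for r and 0.0137 for rho. Without HKO replicates 2 and 4, the libraries farthest from the median of *Igkc*, r was 0.91 for *Jchain*, 0.85 for *Igha*, 0.80 for *Ighg2c* and 0.84 for *Iglc2*. Around the group means r was 0.94, 0.92, 0.87 and 0.84 for these genes.

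*Ighg2b* passed by r (0.83, adjusted exact permutation p = 0.0192) but not by rho (0.67, adjusted p = 0.144), and *Ighg1* by neither (r = 0.67, rho = 0.64, adjusted exact permutation p = 0.103 and 0.144). For *Ighm*, r was -0.12 and rho -0.31 (exact permutation p = 0.769 and 0.462), and r around the group means was 0.55. For *Cd79a*, r was -0.07 and rho -0.10, and for *Cd79b* r was 0.01 and rho -0.07 (exact permutation p between 0.840 and 0.975).

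**Figure D5:**
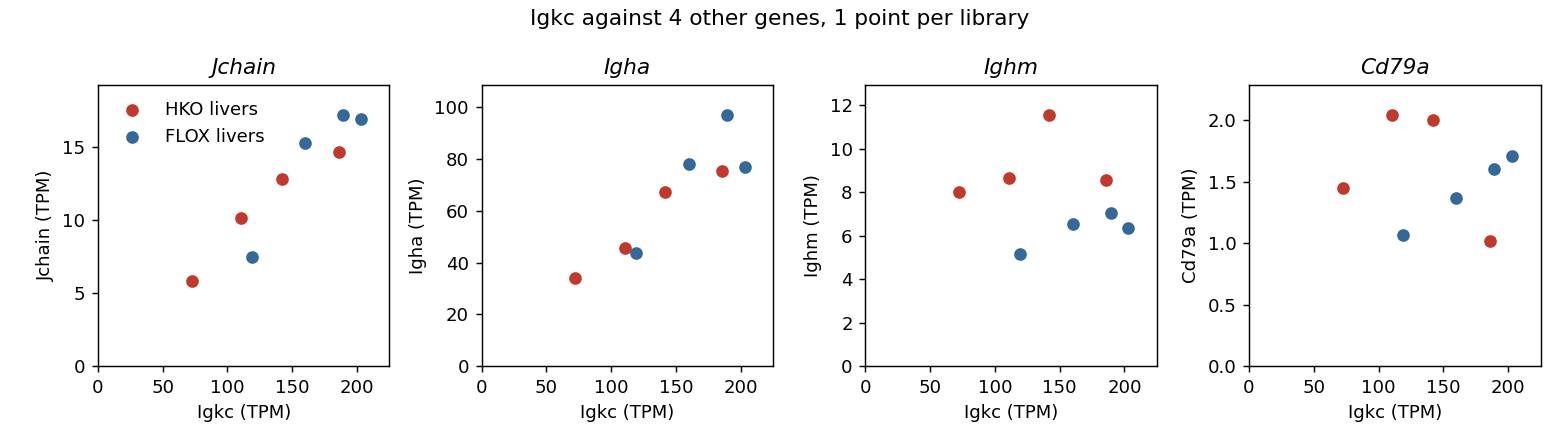
TPM of *Jchain*, *Igha*, *Ighm* and *Cd79a* against TPM of *Igkc*, 1 point per library, with HKO livers in red and FLOX livers in blue (n = 4 each). *Jchain* and *Igha* climb with *Igkc* across both groups, while *Ighm* separates the groups and *Cd79a* shows no common line (r = -0.07 on the log2 scale).

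Outside the immunoglobulin genes, the genes whose levels were most like those of *Igkc*, *Jchain* and *Cd79a* over the 8 libraries were found by Pearson's r among 11424 genes, as a description without a test. Immunoglobulin genes and clone or predicted names were left out of these candidates, so *Igha* and *Ighg2c*, whose r with *Igkc* is given above, are not listed. Of the candidates, *Jchain* ranked first for *Igkc*, followed by *Mtx2*, *Msantd2*, *Fam104a*, *Zfp318* and *Scand1* (r between 0.88 and 0.92). The genes after *Jchain* had r above that of *Iglc2* with *Igkc* (0.87). An r of that size was thus not particular to the members. *Zfp318*, a gene needed in mouse B cells for *Ighd* transcripts, ranked first of the candidates for *Jchain* (r = 0.94), where *Igkc* was not a candidate, followed by *Fam189b*, *mt-Atp6*, *Dut*, *Elmod3* and *Msantd2* (r between 0.87 and 0.94). For *Cd79a* the list was *Ndufv1*, *Zhx3*, *Trac*, *Glce*, *Cecr2* and *Sfxn2* (r between 0.95 and 0.97). *Trac* encodes the T cell receptor alpha constant region. The points share libraries and TPM scaling, and each list holds the highest r of 11424.

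Other constant genes were low. *Ighd*, the IgD heavy chain of mature B cells, stood at 1.2, 1.16, 1.3 and 1.05 TPM in HKO replicates 1 to 4 and at 1.28, 0.81, 0.59 and 0.83 TPM in FLOX replicates 1 to 4 (log2 fold change 0.22, adjusted p = 0.804 in limma). All HKO libraries were above all FLOX libraries except FLOX replicate 1. *Iglc3* averaged 2.97 ± 1.02 TPM in HKO livers and 2.50 ± 0.76 TPM in FLOX livers (SD, n = 4 each; adjusted p = 0.937). *Iglc1* was above 0 in 3 of 4 HKO libraries, at up to 3.34 TPM, and reached 1.13 TPM in FLOX livers. *Ighg3* reached 0.26 TPM in HKO livers and 0.89 TPM in FLOX livers, and *Ighe*, the IgE heavy chain, 0.15 TPM in HKO livers and 0.05 TPM in FLOX livers. *Iglc4* was listed at 0 in every library, and the surrogate light chain gene *Igll1* was above 0 in FLOX replicate 1 alone. *Ighg2a*, the allele that other strains carry in place of *Ighg2c*, had no row under that symbol. Variable segments summed to 189 ± 58.7 TPM for *Igkv* in HKO livers and 248 ± 84.7 TPM in FLOX livers, and to 77.6 ± 18.3 TPM for *Ighv* in HKO livers and 125 ± 55.0 TPM in FLOX livers.

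Of the 21 B cell markers, 10 were under 1 TPM in every library. Of the 21, 6 were tested, 5 had higher values in HKO livers and 0 passed in limma (0 also at an unadjusted p under 0.05), with a median log2 fold change of 0.08. *Ms4a1*, which encodes CD20, was 0.22 to 0.42 TPM in HKO livers and 0.06 to 0.31 TPM in FLOX livers. The tested members of smallest p were *Cd72* (27.9 ± 8.46 TPM in HKO livers and 22.5 ± 10.2 TPM in FLOX livers), *Cd37*, *Btk* and *Blnk* (adjusted p between 0.871 and 0.973). Macrophages also express some of these, such as *Cd72*, *Btk* and *Blnk*. The list summed to 223 to 422 TPM in HKO livers and 210 to 332 TPM in FLOX livers, most of it *Ly6d*, at 170 to 347 TPM in HKO livers and 173 to 262 TPM in FLOX livers.

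Of 18 genes tied to plasma cells, 11 were tested. Values were higher in HKO livers for 9 and lower for 2, beside 8211 of 12710 higher over all tested genes. The median log2 fold change was 0.09. In limma 0 passed, and 2 of the 11, *Derl3* and *Txndc5*, had an unadjusted p under 0.05, beside 8.02% of all tested genes. *Derl3*, which serves the removal of misfolded proteins from the endoplasmic reticulum, had 9.80 ± 3.35 TPM in HKO livers and 6.28 ± 0.93 TPM in FLOX livers (adjusted p = 0.514). *Txndc5*, a protein disulfide isomerase, had 114 ± 17.4 TPM in HKO livers and 94.1 ± 9.29 TPM in FLOX livers (adjusted p = 0.618). The secretory regulator *Xbp1* had a log2 fold change of 0.19 and *Ell2*, an elongation factor that favours the secreted heavy chain form, of -0.31 (adjusted p = 0.804 and 0.700). Hepatocytes are secretory cells and express several of these genes, so their levels here are not those of plasma cells alone. The genes closer to plasma cells were low. *Tnfrsf17*, the receptor BCMA, reached 0.10 TPM in HKO livers and 0.17 TPM in FLOX livers. *Irf4* reached 0.20 TPM in HKO livers and 0.26 TPM in FLOX livers. *Mzb1* averaged 0.66 TPM in HKO livers and 0.96 TPM in FLOX livers, and *Prdm1* 0.34 and 0.47 TPM. Means of *Tnfrsf17*, *Irf4* and *Eaf2* were also lower in HKO livers, while those of *Cd27* and *Cd28* were higher. These genes were under the filter and not tested, and the groups overlapped for each.

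Of 11 genes that carry antibodies or bind them, 10 were tested, at levels between those of *Trim21*, an intracellular antibody receptor (2.70 to 4.53 TPM in HKO livers and 2.71 to 4.14 TPM in FLOX livers), and of *B2m* (4410 to 4885 TPM in HKO livers and 4071 to 4933 TPM in FLOX livers), with 0 of 10 tested past the threshold in limma (0 also at an unadjusted p under 0.05). Values were higher in HKO livers for 7 and lower for 3, beside 8211 of 12710 higher over all tested genes. The median log2 fold change was 0.06. *Pigr*, which encodes the receptor that moves polymeric IgA into bile and mucosal fluids, averaged 516 ± 23.0 TPM in HKO livers and 501 ± 27.5 TPM in FLOX livers (SD, n = 4 each; log2 fold change 0.04, adjusted p = 0.943 in limma). *Fcgr2b*, the inhibitory IgG receptor of sinusoidal endothelium, averaged 24.8 ± 2.12 TPM in HKO livers and 29.3 ± 10.3 TPM in FLOX livers (-0.15, adjusted p = 0.943). *Cd5l*, a macrophage protein that binds IgM, had a log2 fold change of -0.21 (adjusted p = 0.943). *B2m*, a partner of the neonatal Fc receptor and of class I molecules, had one of 0.08 (adjusted p = 0.888).

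Factors that draw plasma cells or keep them alive were also measured. Of 16, 7 were tested, 5 had higher and 2 lower values in HKO livers, and 0 passed in limma (0 also at an unadjusted p under 0.05), with a median log2 fold change of 0.09. The gut-homing chemokine *Ccl25* had 3.38 ± 0.81 TPM in HKO livers and 2.23 ± 0.92 TPM in FLOX livers (SD, n = 4 each; adjusted p = 0.633). *Cxcl12*, the ligand of CXCR4, had 153 ± 23.6 TPM in HKO livers and 130 ± 29.5 TPM in FLOX livers (adjusted p = 0.821). *Tnfsf13*, which encodes the survival factor APRIL, had 4.55 ± 1.17 TPM in HKO livers and 3.85 ± 1.28 TPM in FLOX livers (adjusted p = 0.903), and *Cxcr4* had a log2 fold change of 0.09 (adjusted p = 0.974).

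Markers of other blood cells are set beside these values, and their part in the isotype values was not tested. The 10 myeloid markers summed to 1165 to 1640 TPM in HKO livers and 891 to 1598 TPM in FLOX livers, with 7 higher and 3 lower in HKO livers and 0 called in limma (0 also at an unadjusted p under 0.05). In HKO replicate 2, the library with the lowest *Igkc*, the myeloid sum was 1622 TPM, near the top of the range. The 5 red blood cell genes summed to 923 to 1891 TPM in HKO livers and 690 to 1157 TPM in FLOX livers. For 4 of these 5, *Hbb-bt*, *Hba-a2*, *Hba-a1* and *Hbb-bs*, the values were higher in HKO livers with unadjusted p under 0.05. Of all tested genes, 8.02% had such a p in either direction. After adjustment in limma 0 of the 4 passed (adjusted p between 0.480 and 0.617). The remaining gene, *Alas2*, went the other way, at 42.8 ± 4.27 TPM in HKO livers and 50.5 ± 11.1 TPM in FLOX livers (log2 fold change -0.21, adjusted p = 0.816 in limma). The hepatocyte list, by which the tissue was checked, was abundant in every library, with *Alb* at 44559 ± 3473 TPM in HKO livers and 47418 ± 4596 TPM in FLOX livers. All 6 of its genes had lower values in HKO livers, beside 4499 of 12710 over all tested genes. In limma 0 were called and 1, *Apoa1*, had an unadjusted p under 0.05, beside 8.02% of all tested genes. The groups did not overlap for 2 of the 6, against 4.74% of all tested genes. *Apoa1*, the main protein of high-density lipoprotein, was at 10905 ± 879 TPM in HKO livers and 14504 ± 1748 TPM in FLOX livers (SD, n = 4 each; adjusted p = 0.204 in limma). *Serpina1a*, an alpha-1 antitrypsin gene, was at 3950 ± 190 TPM in HKO livers and 4321 ± 125 TPM in FLOX livers (adjusted p = 0.633).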

How the data were processed

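RNA sequencing of 8 mouse liver libraries, 4 HKO and 4 FLOX by their titles, was used. The authors deposited 1 table of TPM values, 1 column per library. Per the submitters' processing notes, RSEM 1.3.3 was used. They list GRCh38.p13, a human build, although the identifiers are mouse. A stranded total RNA kit was used per the labels. The sources used here name no aligner, annotation or strand option. Depth is unknown, so no count test or counting interval was used.

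Symbols were matched for 52083 of 55416 identifiers. Values were taken as log2(TPM + 1), a gene was kept at 1 TPM or more in 4 or more libraries, and HKO was compared with FLOX in limma 3.58.1 under R 4.3.3 (lmFit, eBayes with trend) at a Benjamini-Hochberg adjusted p of 0.05. The same fit was checked on simulated data with known changes. Those changes were larger than the ones of the members and were put into genes of higher level only. The check therefore does not cover members of a few TPM or smaller changes. Ratios and correlations were tested by exact permutation. Sequences and shared 50-base stretches were read from GENCODE M21 transcripts (GRCm38). That build is not stated to be the authors' build, so its coordinates locate the reference sequences only.

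Named genes were the 10 members, *Smpd3*, up to 4 tested genes of smallest p per list, the other constant genes and the 6 genes most like *Igkc*, *Jchain* or *Cd79a*. *Ms4a1*, *Tnfrsf17*, *Irf4*, *Mzb1*, *Prdm1*, *Eaf2*, *Cd27*, *Cd28*, *Trim21*, *Ly6d* and *Alas2* were named after their values were seen. List counts include a few genes that are not reported here by name. Members and lists were chosen with earlier results of these data known. Other settings tried were leaving out each library, a replicate block, library weights, robust eBayes, pseudocounts of 5 and 0.1, filters of none or a mean of 5 TPM, and 3 scalings (quantile, median-of-ratios and without immunoglobulin genes).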

Additional observations from a re-analysis of the deposited data

Results flagged for a closer look

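In 42 groups of 4 libraries (members, ratios and shares), a library far from the other 3 was looked for by Dixon's test, which chance meets in about 1 group in 20. FLOX replicate 2 was met 3 times. Its *Ighg2b* level was 30.88 TPM, against 8.76 to 11.92 TPM in the other FLOX libraries. Its log2 ratio of *Ighg2b* to *Ighm* was 2.12, against 0.53 to 0.78. Its *Ighg2c* share of heavy chain TPM was 19.2%, against 13.5% to 14.5%. In HKO replicate 4 the *Ighg2c* share was 13.4%, against 9.20% to 9.62% in the other HKO libraries. In FLOX replicate 4 the log2 ratio of *Jchain* to *Cd79a* was 2.03, against 2.73 to 2.81 in the other FLOX libraries.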

How the results depend on the processing

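Of the 10 members, 0 were called in limma in any of the 18 alternative settings, and 9 of the 10 kept their sign in each setting that gave a value. A mean of at least 5 TPM left out *Ighg1*, *Iglc2*, *Cd79a* and *Cd79b*. The log2 fold change of *Ighg1* lay between -0.79 and 0.089 with each library left out, above 0 without HKO replicate 2, HKO replicate 3 or FLOX replicate 2. Adjusted p in the settings reached down to 0.245 for *Ighm* and 0.166 for *Ighg2c*. The count of genes called over the whole table, 13, was 8 and 6 with pseudocounts of 0.1 and 5, 20 with library weights and 0 without a filter, where 26719 genes were tested. It was 0 to 16 with each library left out: 0 without HKO replicate 3 or FLOX replicate 1, 2 without HKO replicate 2, 3 without FLOX replicate 4 and 5 without HKO replicate 1. In the settings with 0 calls *Smpd3* was not called either. The cause of these changes was not tested. With the replicate number as a block the count was 0 (743 genes at an unadjusted p under 0.05). Same-numbered libraries did not deviate together (r between -0.20 and 0.03). Of the 4 HKO libraries, 0 were most like the FLOX library of their own number. A small shared effect could go unseen here, and the labels do not state what the number marks.

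After adjustment over the 6 ratios, the exact permutation p was 0.171 or more in every setting run, which is also the smallest that 1 ratio alone can reach, so this says nothing about stability. Unadjusted, *Igha* to *Ighm* reached an exact permutation p of 0.0286 without HKO replicate 1, the smallest possible there. In the sign-flip test with the replicate number as a block, p cannot go below 0.125. The *Igkc* to *Iglc2* difference, -0.08, was 0.0096 with a pseudocount of 0.1 and -0.20 to 0.12 with each library left out. The *Igha* to *Ighg2b* difference, 0.04, was -0.069 with a pseudocount of 5 and -0.29 to 0.31 with each library left out. The *Jchain* to *Igkc* difference, 0.08, was -0.025 to 0.15 with each library left out, below 0 without FLOX replicate 4. With each library left out, the *Igha* to *Ighm* difference, -0.90, was -1.09 to -0.75. That of *Ighg2b* to *Ighm*, -0.94, was -1.30 (without HKO replicate 1) to -0.55 (without HKO replicate 2), and -0.58 without FLOX replicate 2. That of *Jchain* to *Cd79a*, -0.46, was -0.74 (without HKO replicate 1) to -0.24 (without HKO replicate 2). TPM keep no depth, so how far counting error limits genes near 1 TPM is unknown.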

Other observations

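Genes of class switching and T cell markers were also measured. Of 12 class switch genes 11 were tested and 0 passed in limma (0 also at an unadjusted p under 0.05), with a median log2 fold change of 0.07. *Lig4*, a DNA end-joining ligase, had 0.92 ± 0.26 TPM in HKO livers and 1.36 ± 0.28 TPM in FLOX livers (SD, n = 4 each; adjusted p = 0.712). The other 3 of smallest p were *Mad2l2*, *Ung* and *Trp53bp1* (log2 fold changes of 0.16, 0.20 and 0.24, adjusted p between 0.793 and 0.901).

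Of 12 T cell markers 9 were tested, and all 9 had higher values in HKO livers, beside 8211 of 12710 over all tested genes. Their median log2 fold change was 0.27, beside 0.05 over all tested genes. None passed in limma, and 2 of the 9 had an unadjusted p under 0.05, beside 8.02% of all tested genes. *Cd3g*, a chain of the T cell receptor complex, had 4.0 ± 1.17 TPM in HKO livers and 2.19 ± 1.28 TPM in FLOX livers (SD, n = 4 each; adjusted p = 0.534). *Cd2*, an adhesion receptor of T cells, had 2.09 ± 0.45 TPM in HKO livers and 1.3 ± 0.61 TPM in FLOX livers (adjusted p = 0.617). In FLOX replicate 4 the T cell sum was the lowest of all libraries, and its part in these values was not tested.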
